A study of Mus musculus with 42 samples.

Results

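The chromatin remodeler genes were examined in single cell profiles of the developing mouse retina. They were taken as all genes of the array annotation whose symbols begin with Smarc, or with Arid, Chd or Baz followed by a number. By this rule, 36 of the 18194 genes measured were members, and they were represented by 94 probe sets. Each of 42 single cells, labeled as retinal progenitor cells (RPCs) of CD-1 mice, an outbred strain, was profiled on 1 Affymetrix mouse array after 35 cycles of PCR. The labels named no treatment and no engineered allele for any cell. The stages were embryonic day (E) 12.5 with 11 cells, E13.5 with 4, E14.5 with 2, E15.5 with 1, E16.5 with 11, and postnatal day (P) 0, the day of birth, with 13. The cells had been picked at random from dissociated retinas and classified only afterwards, from their own profiles. That classification placed some of them, among them the cells B1 of E14.5 and F1 of E16.5, in a transitional class, on the way to becoming neurons, but the labels do not give this class and it was not used as a group. No label named the animal or litter of a cell, so a stage stands for 1 sample and the stages were compared without a test.

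Chromatin remodelers are ATP-driven machines that slide, eject or exchange nucleosomes. BAF and PBAF complexes, the mammalian SWI/SNF family, are built around Smarca4 (Brg1) or its paralog Smarca2 (Brm). ISWI complexes pair the ATPases Smarca5 (Snf2h) or Smarca1 (Snf2l) with large partners of the Baz family and space nucleosomes evenly, and the CHD proteins include the motor of the NuRD complex, which also carries histone deacetylases. In the nervous system, BAF complexes are known to exchange subunits as progenitors leave the cell cycle, with Actl6a, Phf10 or Dpf2, and Ss18 giving way to Actl6b, Dpf1 or Dpf3, and Ss18l1.

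For each cell, the brightest probe set of a gene gave the signal of that gene, in linear units that the authors scaled to a target of 500 on every array. Genes with a signal of at least 1000 were called present. Signals of different genes come from different probe sets and were not set against each other. The number of genes present per cell, the measure of depth here, ranged between 1386 and 5253. Some arrays stood apart. The hybridization controls of 5 E16.5 arrays departed from the usual pattern (cells J1, J2, J4, E8 and F1), and 22.6% of all gene values on these arrays were present, against 11.97% in the other 6 E16.5 cells. In E13.5 cell A6 and E16.5 cell E5, 414 and 304 genes reached a signal of 100000, while no other cell had more than 39. Of 10 RPC markers such as Pax6, Sox2 and Ccnd1, between 3 and 10 were present in a cell, with a median of 7. Of 10 markers of postmitotic neurons, between 0 and 10 were present, with a median of 2. Markers of other cell types were also found. At least 1 of 4 blood markers was present in 8 cells, with a summed signal of up to 178276 and 3 markers in E12.5 cell G2. At least 1 of 4 lens crystallins was present in 6 cells, with a summed signal of up to 383902, 4 of 4 in E14.5 cell D7 and 3 of 4 in E13.5 cell A6. At least 1 of 5 pigment epithelium markers was present in 3 cells (2 in P0 cell C1), and at least 1 of 4 microglial markers in 1 cell (Cx3cr1 in E13.5 cell A6). Of 4 endothelial markers, Kdr was present in 25 cells and Pecam1 and Tek in 1 each. Csf1r, Aif1, C1qa, Cdh5, Rpe65, Tyr and Mlana were present in no cell. The part of these transcripts in the remodeler counts was not tested.

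The promoters of the genes whose frequency differed most between P0 and E12.5 are shown first, 1 start site each, because these genes are the ones described in most detail. Arid1a and Smarcc1 were found in a larger share of P0 cells, and Baz2b and Chd8 in a smaller share. The windows run from 250 bases before to 50 after the start of transcription and are from RefSeq, build GRCm38.p6. They lie at chr4:133753936-133754235 on the minus strand (Arid1a, the second of 2 start sites), chr9:110131774-110132073 on the plus strand (Smarcc1), chr2:60125691-60125990 on the minus strand (Baz2b) and chr14:52257711-52258010 on the minus strand (Chd8). Capitals mark the CCAAT box (CCAAT), the TATA box (TATAAA) and the GC box (GGGCGG), each searched on both strands.
Arid1a: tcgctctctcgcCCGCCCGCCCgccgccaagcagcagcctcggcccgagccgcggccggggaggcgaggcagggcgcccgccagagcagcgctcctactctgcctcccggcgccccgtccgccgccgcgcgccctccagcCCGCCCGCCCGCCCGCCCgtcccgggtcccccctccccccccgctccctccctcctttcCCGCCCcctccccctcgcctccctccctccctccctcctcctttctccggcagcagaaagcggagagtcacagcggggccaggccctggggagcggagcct
Smarcc1: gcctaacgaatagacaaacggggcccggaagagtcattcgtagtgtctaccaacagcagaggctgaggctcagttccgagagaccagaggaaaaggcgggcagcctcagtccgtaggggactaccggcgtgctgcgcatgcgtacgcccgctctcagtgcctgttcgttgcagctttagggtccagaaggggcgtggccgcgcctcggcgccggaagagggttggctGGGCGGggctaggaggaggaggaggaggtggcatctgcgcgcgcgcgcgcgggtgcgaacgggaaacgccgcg
Baz2b: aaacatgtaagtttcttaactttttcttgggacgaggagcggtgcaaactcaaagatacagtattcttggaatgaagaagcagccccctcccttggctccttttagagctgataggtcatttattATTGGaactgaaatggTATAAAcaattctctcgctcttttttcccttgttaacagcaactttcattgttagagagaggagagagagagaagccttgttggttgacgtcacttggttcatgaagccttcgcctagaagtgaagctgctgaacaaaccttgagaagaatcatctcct
Chd8: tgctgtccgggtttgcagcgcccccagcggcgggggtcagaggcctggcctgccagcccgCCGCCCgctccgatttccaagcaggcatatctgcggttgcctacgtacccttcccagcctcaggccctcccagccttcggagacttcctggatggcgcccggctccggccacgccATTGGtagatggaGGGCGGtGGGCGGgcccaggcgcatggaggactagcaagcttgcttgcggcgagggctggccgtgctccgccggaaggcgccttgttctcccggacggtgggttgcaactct

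The Smarcc1 and Arid1a windows held 66.0% and 79.7% G and C, the Chd8 window 69.3% and the Baz2b window 41.7%. Baz2b was the one of these with a TATA box and without a GC box. The Arid1a window held 7 GC boxes and the Chd8 window 3. The Arid1a window was printed for its GC boxes, and the other start site of Arid1a, at chr4:133756720-133757019, had 61.3% G and C and 1 GC box. RefSeq promoters were matched for 27 of the 36 members, with 33 start sites between them. The median G and C content of these windows was 65.7%, against 52.7% over 32851 promoters of all genes. The GC box was in 75.8% of the member windows and in 35.7% of all promoters. The CCAAT box was in 36.4% and 37.4%, and the TATA box in 9.09% and 13.6%. The NRF1 core, an E2F core (TTTCGCGC) and a Myc E box (CACGTG) were in none of the 33 member windows, and in 0.971%, 0.323% and 7.15% of all promoters. A match describes letters in a window and is not evidence of binding.

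Of 1512 member values (36 genes in 42 cells), 578 were present, or 38.2% (exact 95% interval 35.8% to 40.7%). The share over all genes was 17.0%. All intervals given here cover counting error only. The members had a median of 2 probe sets and all genes a median of 1. Among genes with a single probe set, 20.1% of the values of 9 members were present, against 9.85% over 9182 genes. Among genes with more probe sets, 44.3% of the values of 27 members were present, against 24.4% over 9012 genes. Of the member values, 813 lay under 500, 121 between 500 and 1000, 130 between 1000 and 2000, and 84 at 10000 or more, so that 251 values lay within a factor of 2 of the limit.

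All 36 members were present in at least 1 cell (72.6% of all genes were), and none in all 42. There were 12 members, or 33.3%, in 21 or more cells (background 10.8%), and 6, or 16.7%, in 30 or more (background 4.08%). At the other end, 6 members, or 16.7%, were in 4 or fewer cells (background 57.8%), and 18 lay between these classes. The median member was found in 14.5 cells and the median gene in 3.

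**Figure D1:**
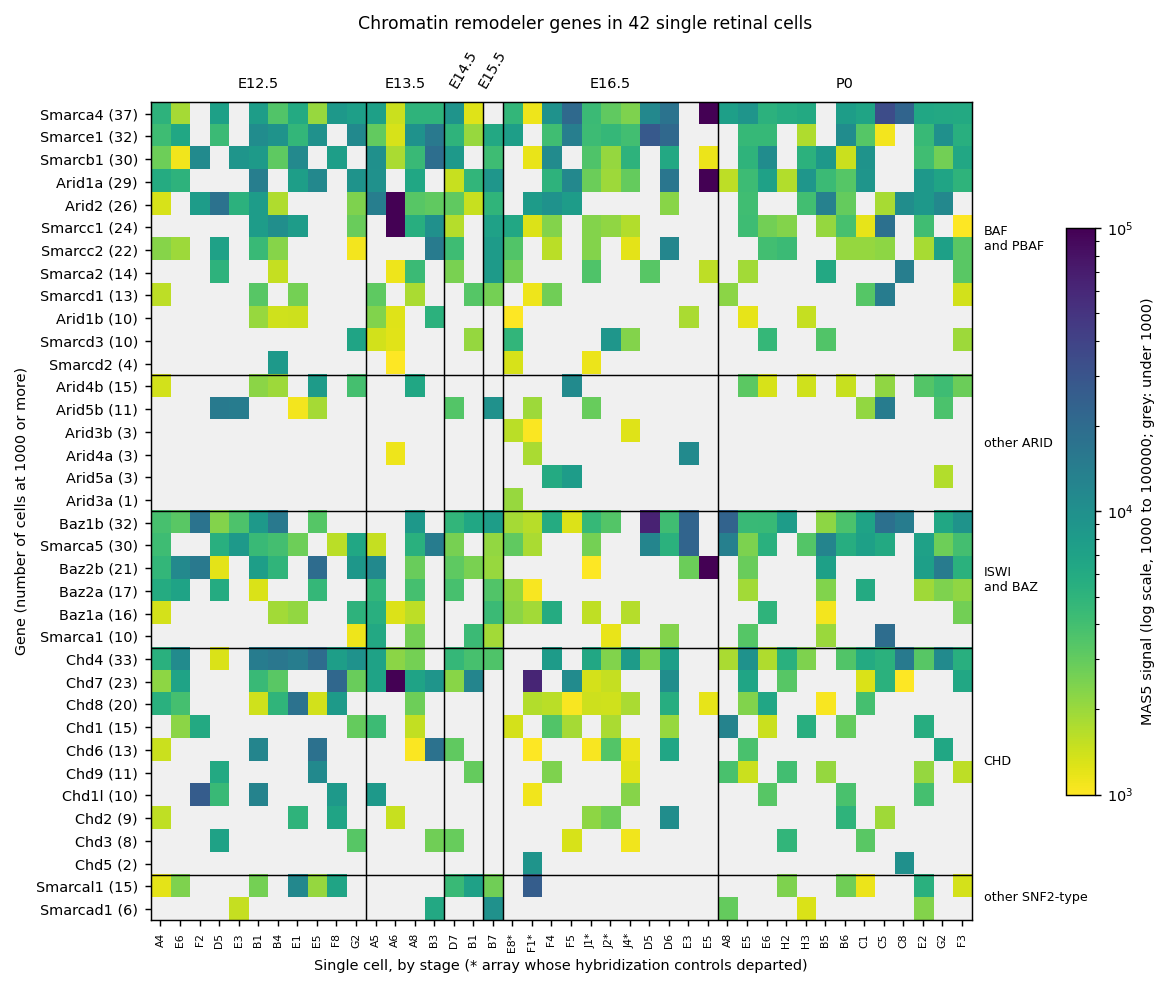
Signals of the 36 remodeler genes (down, by complex, with the number of cells at 1000 or more) in the 42 cells (across, by stage). Color gives the MAS5 signal on a log scale that saturates at 100000, grey marks values under 1000, and stars mark the 5 arrays with departing controls. Smarca4, present in 37 cells, fills most of its row, whereas Arid3a is present in 1 cell.

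The BAF and PBAF subunits were present in 49.8% of their values (251 of 504, interval 45.3% to 54.3%), the ISWI ATPases and BAZ proteins in 50.0% (126 of 252, 43.7% to 56.3%) and the CHD genes in 34.3% (144 of 420, 29.8% to 39.0%). Smarcad1 and Smarcal1, SNF2-type proteins that act in DNA repair and at stalled replication forks, were present in 25.0% (21 of 84, 16.2% to 35.6%). The ARID genes outside BAF were present in 14.3% (36 of 252, 10.2% to 19.2%).

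Smarca4, the principal BAF ATPase, was the most widely detected member, in 37 of 42 cells (88.1%, interval 74.4% to 96.0%). In stage order, E12.5 had it in 9 of 11 cells, E13.5 in 4 of 4, E14.5 in 2 of 2, E15.5 in 0 of 1, E16.5 in 10 of 11 and P0 in 12 of 13. Its signals ranged from 195 to 34585 at P0, with a median of 6447, against 11.8 to 8579 and a median of 5048 at E12.5. The ranges overlapped, but the 12 positive P0 cells all lay at 5193 or more, whereas the lowest positive E12.5 cell was at 1857. The core subunits Smarce1 and Smarcb1, which are shared by BAF and PBAF, were in 32 and 30 cells. Smarce1 was found in 8 of 11, 4 of 4, 2 of 2, 1 of 1, 8 of 11 and 9 of 13 cells from E12.5 to P0, and Smarcb1 in 8, 4, 1, 1, 7 and 9 of the same cells. For each of them, the difference between P0 and E12.5 was -3.5 points, with a Newcombe interval of -35.6 to 30.9 points.

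The ARID subunits set apart the kinds of complex. Arid1a and Arid1b belong to BAF and Arid2 to PBAF. Arid1a was found in 29 cells, Arid2 in 26 and Arid1b in 10, and 40 of 42 cells had at least 1 of them. The scaffold subunits Smarcc1 (BAF155) and Smarcc2 (BAF170) were in 24 and 22 cells. Of the 3 Smarcd (BAF60) genes, Smarcd1 was in 13 cells, Smarcd3 in 10 and Smarcd2 in 4, of which 2 (E16.5 cells E8 and J1) were on arrays with departing controls. No Smarcd gene was present in 20 cells, 1 in 17, 2 in 5, and all 3 in 0. The Smarcd slot was therefore filled in 22 cells, the fewest of the BAF slots examined. Smarcd genes were present in 5 of the 5 E16.5 cells with departing controls and in 1 of the other 6.

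A complete set of 7 BAF slots (Smarca4 or Smarca2, Smarcb1, Smarcc1 or Smarcc2, a Smarcd gene, Smarce1, an Arid1 gene or Arid2, and Actl6a or Actl6b) was present in 12 of 42 cells. E12.5 had 4 of these cells, E13.5 and E15.5 had 1 each, E14.5 had 0, and E16.5 and P0 had 3 each. A cell had between 2 and 7 of the slots, with a median of 6. The 12 cells with all 7 had between 2937 (E12.5 cell B4) and 4828 genes present (E12.5 cell A4). Those with 2 slots had between 1386 (E16.5 cell D5) and 1691 (E12.5 cell F2). The ARID slot also counts Arid2 of PBAF, and Arid1a or Arid1b was in 34 cells. The slots were filled in 40 cells for the ARID subunits, 39 for the ATPases, 35 for Actl6, 32 for Smarce1, 30 for Smarcb1 and 29 for Smarcc, so that no slot was filled in all 42 cells.

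Among the ISWI genes, Smarca5 was present in 30 cells and its paralog Smarca1 in 10. Of the partners, Baz1b (the Williams syndrome transcription factor of the WICH complex) was in 32 cells, Baz2b in 21, Baz2a (Tip5, of the nucleolar silencing complex) in 17 and Baz1a (Acf1, of ACF and CHRAC) in 16. Smarca5 and Baz1b were found together in 23 cells. Of the 16 cells with Baz1a, 13 had Smarca5, and of the 17 with Baz2a, 15 did. The calls of Baz1b rested on 1 of its 5 probe sets, which was at 1000 or more in all 32 cells.

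Chd4, the main ATPase of NuRD, led the CHD genes with 33 cells, with E12.5 having 9 of them, E13.5 having 3, E14.5 having 2, E15.5 having 1, E16.5 having 6 and P0 having 12. Of its 3 probe sets, a single one gave 32 of the 33 calls. Chd7, mutated in CHARGE syndrome, followed with 23 cells, and Chd8, an autism gene that binds beta-catenin, with 20. Chd1 was in 15 cells, Chd6 in 13, Chd9 in 11, Chd1l in 10, Chd2 in 9 and Chd3 in 8. Chd5, a neuronal paralog of Chd4, was in 2 cells, with a signal of 9885 in P0 cell C8 and 9294 in E16.5 cell F1. F1 was on an array with departing controls, and without those arrays Chd5 was in 1 cell. Of the 10 neuronal markers, 4 were present in each of the 2 cells. Other cells had more of these markers without Chd5, with 10 in P0 cell B6, 8 in P0 cell C1 and 7 in E14.5 cell B1.

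The ARID genes that are not BAF subunits included Arid4b, a component of Sin3 corepressor complexes, in 15 cells and Arid5b in 11. Arid3b, Arid4a and Arid5a were in 3 cells each and Arid3a in 1. The 3 cells with Arid3b were E8, F1 and J4 of E16.5, at signals of 1615, 1036 and 1248, and the Arid3a cell was E8, at 2050. All of these were arrays with departing controls, and no other cell had either gene. Smarcal1 was in 15 cells and Smarcad1 in 6.

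The very highest signals of the members came from 2 cells. Arid2 reached 342765, Smarcc1 240179 and Chd7 232631 in E13.5 cell A6, and the next highest cells of the same genes were at 17540, 18204 and 61915. Baz2b reached 125825, Smarca4 107503 and Arid1a 100758 in E16.5 cell E5, with the next highest cells at 19471, 34585 and 16417. No other member value reached 100000. These are the same arrays on which 414 and 304 genes reached that level, and without them 38.8% of the member values were present.

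The number of members present in a cell ranged from 5 to 20, with a median of 14.5. It followed the number of all genes present in the same cell, with Pearson's r = 0.80 and Spearman's rho = 0.81 over 42 cells. Within stages, r was 0.79 over 11 cells at E12.5, 0.90 over 11 at E16.5 and 0.75 over 13 at P0. Without the 5 arrays with departing controls it was 0.82, and without the 2 cells farthest from the median number of genes it was 0.80. Members are counted in both numbers and both depend on the amplified cDNA of 1 cell, so the values are given as a description. E16.5 cell E3, with 1674 genes, had 5 members. E12.5 cell B1, with 3354 genes, and E13.5 cell A8, with 4537, had 20 each.

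**Figure D2:**
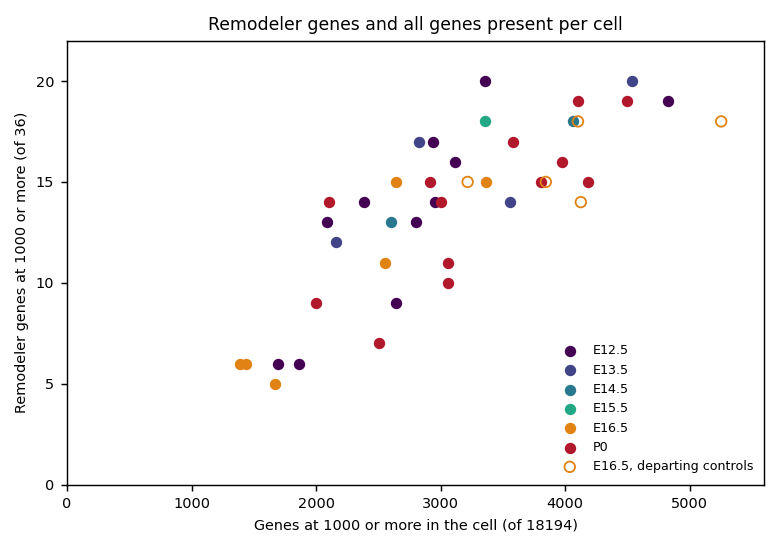
Number of remodeler genes present (of 36) against the number of all genes present (of 18194) in each of 42 cells, colored by stage, with open circles for the 5 arrays with departing controls. The cells run along 1 band from 5 members to 20, and the stages overlap.

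By stage, the share of member values present was 37.1% at E12.5, 43.8% at E13.5, 43.1% at E14.5, 50.0% in the E15.5 cell, 34.8% at E16.5 and 38.7% at P0. For all genes, it was 15.3%, 18.0%, 18.3%, 18.5%, 16.8% and 18.1%. The member share was 1.55 points higher at P0 than at E12.5 (181 of 468 and 147 of 396 values), with a Newcombe interval of -4.94 to 7.99 points. Over all genes the same difference was 2.78 points. At E16.5, the member share was 44.4% on the 5 arrays with departing controls and 26.9% on the other 6. The intervals of such shares pool genes and cells of a stage, which are not independent, so they are too narrow for a comparison of stages. BAF and PBAF subunits were present in 50.6% of values at P0 and 43.9% at E12.5 (6.70 points, -4.83 to 18.0), ISWI and BAZ genes in 50.0% and 51.5% (-1.52 points, -17.4 to 14.5), and CHD genes in 33.1% and 35.5% (-2.38 points, -14.3 to 9.49). The ARID genes outside BAF were present in 15.4% and 13.6% (1.75 points, -10.4 to 13.2). The pair Smarcad1 and Smarcal1 was present in 30.8% of values at P0 and 31.8% at E12.5 (-1.05 points, -26.3 to 23.6). At E16.5 this pair was present in 4.55% of values, a difference from E12.5 of -27.3 points (-48.5 to -4.11).

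Between P0 and E12.5, 18 members were in a larger share of P0 cells, 15 in a smaller share and 3 in none at either stage. The median difference was 0.35 points over the members and 0 over all genes. A gene was counted as higher or lower where the shares differed by 30 points or more. Arid1a and Smarcc1 were higher at P0, 2 of 36 or 5.56% of members, where 4.73% of all genes were. Baz2b and Chd8 were lower at P0, again 5.56%, where 1.52% of all genes were. The interval of every member included 0 in this comparison, so that none of these differences exceeded the counting error of 13 and 11 cells. The backgrounds, here and below, hold many genes in too few cells to differ by 30 points. The median gene was in 3 cells and the median member in 14.5. As the backgrounds were not matched for this, a larger share of members called is not a result about the members.

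**Figure D3:**
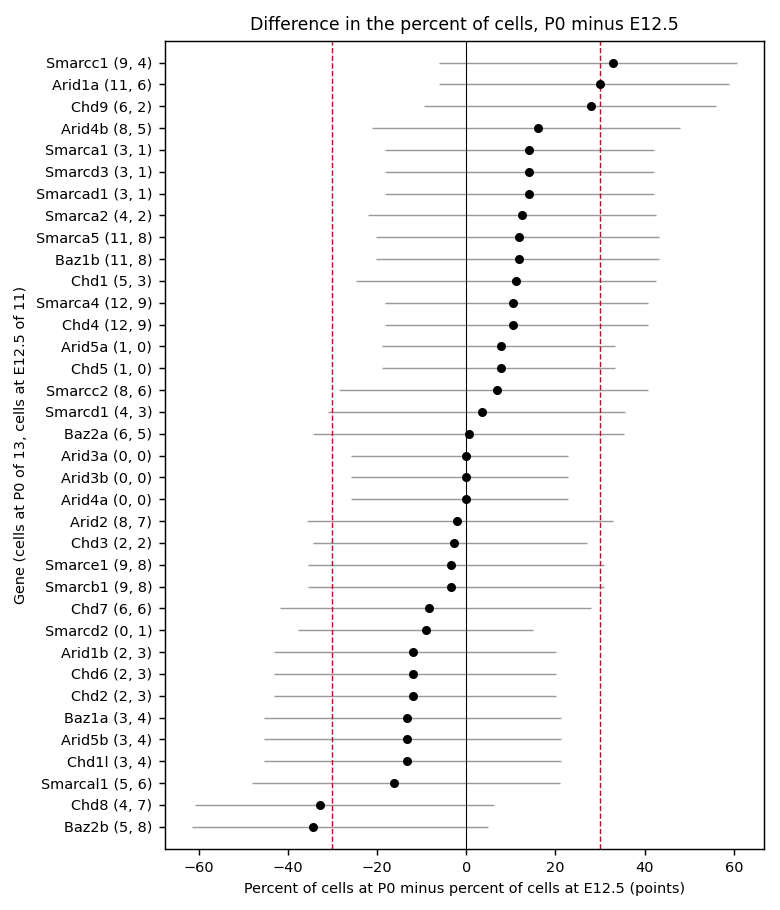
Percent of cells with each remodeler gene at P0 minus the percent at E12.5, in points, with 95% Newcombe intervals and dashed lines at 30 points; the numbers of cells at P0 and at E12.5 stand beside each name. Smarcc1 and Arid1a lie past the upper line and Chd8 and Baz2b past the lower one, and all intervals cross 0.

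Arid1a, the BAF subunit, was present in 11 of 13 cells at P0 and in 6 of 11 at E12.5, a difference of 30.1 points (-6.1 to 58.8). Its signals ran from 15.8 to 9020.5 at P0, with a median of 4330, and from 8.3 to 13997 at E12.5, with a median of 5077. The positive cells were thus more frequent at P0 but not brighter, and at a limit of 5000 the difference turned to -8.39 points. With each of the 24 cells left out in turn, the difference ranged from 24.6 to 37.1 points and stayed past 30 in 8 cases. It fell under 30 without any 1 of the 11 positive P0 cells or the 5 negative E12.5 cells.

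Smarcc1, the BAF scaffold, was present in 9 of 13 cells at P0 and in 4 of 11 at E12.5, a difference of 32.9 points (-6.1 to 60.7). Its signals ran from 149 to 18204 at P0, with a median of 2068, and from 21.5 to 10241 at E12.5, with a median of 251. The 4 positive E12.5 cells were bright, with a median of 7848 against 2676 in the 9 positive P0 cells, and at a limit of 5000 the difference was -19.6 points. At E16.5, all 5 cells with departing controls had Smarcc1 and 1 of the other 6 did. Leaving out each cell gave 29.2 to 39.2 points, under 30 without any 1 of the 7 negative E12.5 cells. With the median of its 4 probe sets the difference was -1.40 points.

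Baz2b, a bromodomain partner of ISWI ATPases, was present in 5 of 13 cells at P0 and in 8 of 11 at E12.5, a difference of -34.3 points (-61.4 to 4.9). Its signals ran from 45.7 to 14747 at P0, with a median of 612, and from 92.6 to 19471 at E12.5, with a median of 4939. It was past 30 points with each of the 24 cells left out in turn. It was also found in 3 of 11 cells at E16.5, a difference of -45.5 points from E12.5 (-70.2 to -4.0), or of -39.4 points without the 5 arrays with departing controls. A single probe set of 5 was at 1000 or more in all of its 21 positive cells, and with the median of the probe sets the P0 difference was 7.69 points.

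Chd8 was present in 4 of 13 cells at P0 and in 7 of 11 at E12.5, a difference of -32.9 points (-60.7 to 6.1). Its signals ran from 64.2 to 6521 at P0, with a median of 311, and from 68.3 to 17536 at E12.5, with a median of 1387. Of the E16.5 cells, 8 of 11 had it, with a median of 1389. Against that stage, P0 was 42.0 points lower (-67.1 to -2.2), or 35.9 points lower without the 5 arrays with departing controls. Leaving out each cell gave -39.2 to -29.2 points between P0 and E12.5, short of 30 without any 1 of the 7 positive E12.5 cells. With the median of its 4 probe sets, Chd8 was present in 0 cells.

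**Figure D4:**
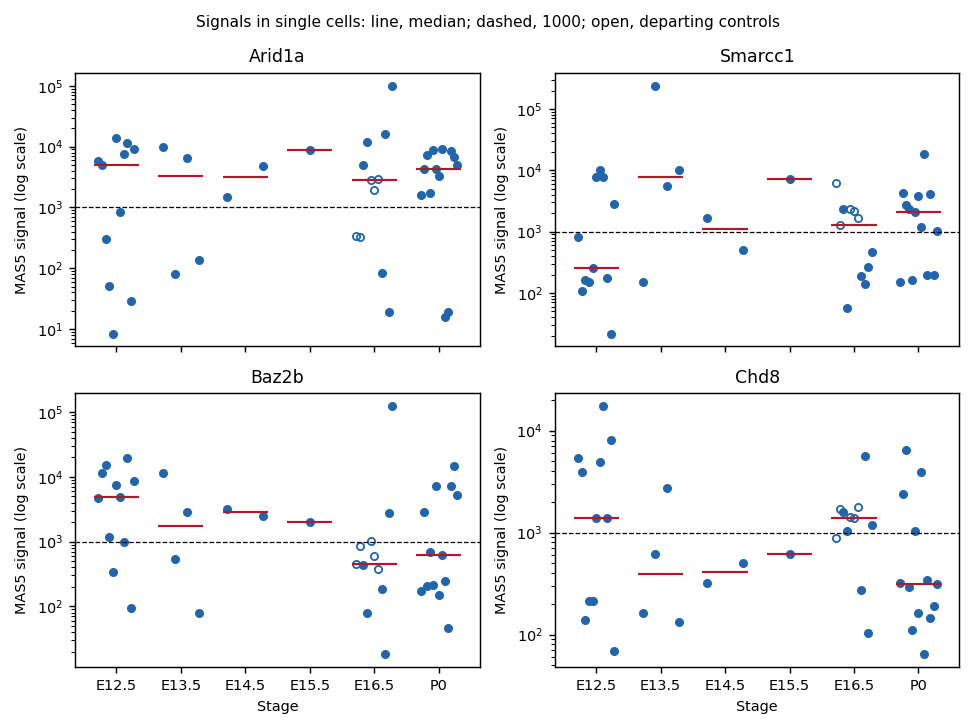
MAS5 signals of Arid1a, Smarcc1, Baz2b and Chd8 in each cell by stage on log axes, with the median of a stage as a line, the limit of 1000 dashed, and open circles for the 5 arrays with departing controls. In each gene the P0 and E12.5 cells overlap over most of their range.

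When every cell was given the same number of present genes, 3034, no member was 30 points higher at P0 (3.04% of all genes were), and Baz2b and Arid1b were lower (5.56%, background 2.68%). Arid1a was then 20.98 points and Smarcc1 17.5 points higher, while Baz2b was 52.4 points, Arid1b 37.8 points and Chd8 23.8 points lower.

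Comparisons with E16.5 share cells with the one above. No member was 30 points higher at E16.5 than at E12.5 (2.00% of all genes were), and Arid4b, Baz2b and Smarcal1 were lower (8.33%, background 2.03%). At P0, Arid4b, Chd4 and Smarca5 were higher than at E16.5 (8.33%, background 5.05%), and Chd6 and Chd8 were lower (5.56%, background 1.74%). Arid4b was in 8 of 13 cells at P0 and in 1 of 11 at E16.5, a difference of 52.4 points (13.8 to 74.5), the largest of the 108 member differences with all cells used. Its signals ran from 164 to 4193 at P0, with a median of 1390, and from 46.5 to 11098 at E16.5, with a median of 344. Chd4 was in 12 of 13 cells at P0 and in 6 of 11 at E16.5 (37.8 points, 2.5 to 65.0). Smarcal1 was in 1 of 11 cells at E16.5 and in 6 of 11 at E12.5 (-45.5 points, -70.8 to -6.4), and the 1 cell was on an array with departing controls. Of the 108 intervals, 5 did not include 0, and the intervals were not adjusted for their number. All 5 were in comparisons with E16.5. The differences from E16.5 were not computed at other limits, with other values per gene or at equal depth. Chd6 was in 4 of the 5 arrays with departing controls and in 1 of the other 6 E16.5 cells, and without those arrays P0 was 1.28 points lower.

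Some of these calls depended on the 5 arrays with departing controls. Without those arrays, E16.5 was represented by 6 cells. The calls of Chd6 against P0 and of Arid4b against E12.5 were then lost. The other calls named above for E16.5 stayed, and further members were called. Arid5a was then 33.3 points higher than at E12.5 (2.78%, background 2.25%). Lower than at E12.5 were Smarcal1 (-54.5 points), Baz2a (-45.5), Baz2b (-39.4), Arid5b and Chd1l (-36.4 each) and Chd4 (-31.8), which made 16.7% of members, with a background of 6.03%. Arid4b was at -28.8 points. In the same setting, P0 was higher than E16.5 for Smarcc1 (52.6 points), Baz2a (46.2), Arid4b (44.9), Chd4 (42.3), Smarcal1 (38.5) and Smarca5 (34.6), again 16.7%, with a background of 10.0%. Chd8 was the 1 member lower at P0 (2.78%, background 1.28%).

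Alternative subunits were compared in 11 pairs, each by the number of cells with both, either or neither. In every pair the subunit named first was in more cells, but for 4 pairs this order depended on the processing. Smarca4 was in 37 cells and Smarca2 in 14, of which 12 had both. The 2 cells with Smarca2 alone were E15.5 cell B7 and P0 cell B5, and 3 cells had neither. Smarca2 was in 4 of 13 cells at P0 and in 2 of 11 at E12.5, a difference of 12.6 points (-22.0 to 42.4). Smarca5 was in 30 cells and Smarca1 in 10, with 8 cells having both. Arid1a and Arid1b were in 29 and 10 cells, with both in 5. Chd4 was in 33, Chd3 in 8 and Chd5 in 2, with Chd4 in 6 of the 8 cells with Chd3 and in 1 of the 2 with Chd5. Of the 42 cells, 20 had both an Arid1 gene, of BAF, and Arid2, of PBAF. Arid2 was in 58.8% of the cells with an Arid1 gene and in 75% of those without.

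The paralogs Smarcc1 and Smarcc2 shared 17 cells, out of 24 and 22. Smarcc2 was in 70.8% of the cells with Smarcc1 and in 27.8% of those without. Apart from P0 cell H3, every cell with neither gene lay under the median depth of 3034 genes. The part of depth in this contrast was not tested. At P0, 7 of 13 cells had both, and at E12.5 3 of 11 did. Smarcd1 and Smarcd3 shared 3 cells, with Smarcd3 in 23.1% of the cells with Smarcd1 and in 24.1% of those without. The order within these pairs turned at equal depth, where Smarcc1 was in 21 cells and Smarcc2 in 22, and Smarcd1 was in 10 and Smarcd3 in 11. Smarcc1 was in 5 cells with the median of its 4 probe sets, against 22 for Smarcc2, which has 1 probe set. The Smarcc counts above thus rest on the brightest probe set of Smarcc1. With the median of the probe sets, Chd4 was in 1 cell, Chd3 in 8 and Chd5 in 2, since a single probe set of Chd4 detected it.

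**Figure D5:**
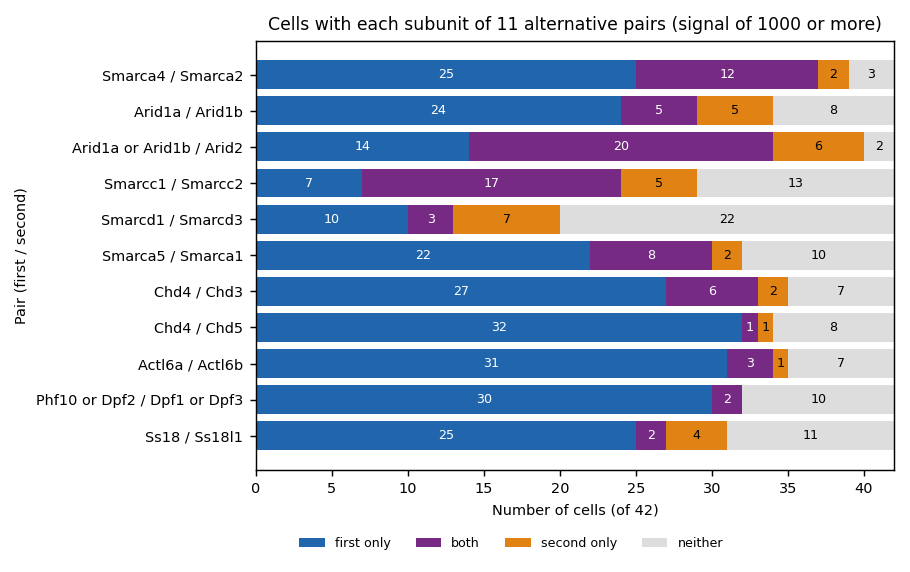
Numbers of the 42 cells with only the first subunit of a pair, both, only the second, or neither, for 11 alternative pairs. Actl6a is present without Actl6b in 31 cells, Smarcc1 and Smarcc2 are found together in 17, and 22 cells have neither Smarcd1 nor Smarcd3.

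Of the subunits known to switch when neurons form, Actl6a (BAF53a) was in 34 cells and Actl6b (BAF53b) in 4. These are counts at 1 limit from different probe sets, 3 of Actl6a and 1 of Actl6b, and do not compare the levels of the 2 genes. The 4 were P0 cells C8 and C1, E15.5 cell B7 and E14.5 cell B1, at signals of 11559, 2435, 2916 and 5715, and they had 4, 8, 6 and 7 of the 10 neuronal markers. Among the cells without Actl6b, P0 cell B6 had 10 of these markers, and E14.5 cell D7 and E16.5 cell F5 had 6 each. Actl6a was in 13 of 13 cells at P0, 6 of 11 at E16.5 and 10 of 11 at E12.5. Phf10 was in 17 cells and Dpf2 in 28, whereas Dpf1 and Dpf3 were in 1 each, both at E16.5. Ss18 was in 27 cells and Ss18l1 in 6, with both in 2.

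Partner subunits of these complexes and genes of other remodelers were also counted. In this list of 46 genes, 6, or 13.0%, were 30 points or more higher at P0 than at E12.5 and 2, or 4.35%, were lower, against 4.73% and 1.52% of all genes. This background was again not matched for how often a gene is present. Over all genes, 18.1% of values were present at P0 and 15.3% at E12.5, and the partner differences were not computed at equal depth. The 14 BAF and PBAF partners were present in 42.9% of values at P0 and 28.6% at E12.5, a difference of 14.3 points (3.98 to 24.1, pooled over genes and cells as above). Of the 14, 10 were in a larger share of P0 cells, 2 in a smaller share and 2 at no difference. Among them, Bcl7b was in 7 of 13 cells at P0 and 1 of 11 at E12.5, Brd9 in 9 and 3, and Ss18 in 10 and 5. The differences were 23.1 points for Bcl7c (8 of 42 cells), 18.9 for Bcl7a (17 cells), 17.5 for Pbrm1 (20 cells), 15.4 for Actl6b, 14.7 for Dpf2, 9.09 for Actl6a and 0.70 for Phf10. They were 0 for Dpf1 and Dpf3, -6.99 for Brd7 (19 cells) and -10.5 for Ss18l1. Outside BAF, Pole3, Hdac1 and Actr8 were higher at P0, and Cecr2 and Ttf2 were lower. Hdac1 and Actr8 are named after their values were seen. The NuRD genes were the most often present of the lists, in 53.5% of values, with Rbbp7 in 38 cells, Rbbp4 in 37, Gatad2b in 8 and Mta3 in 7. All 6 NuRD slots were filled in 12 of 42 cells, 4 of 13 at P0 and 3 of 11 at E12.5, and the slot of the ATPases Chd3, Chd4 and Chd5 in 36. The INO80, SRCAP and TIP60 genes were present in 36.3% of values, from Ruvbl2 in 30 cells and Ruvbl1 in 24 to Ino80 in 5 and Actr6 in 4. Of the other SNF2-type ATPases (33.3%), Atrx was in 32 cells, Ttf2 in 17, Shprh in 7 and Ercc6 in none. Of the ISWI partners (37.1%), Pole3 was in 27 cells, Bptf in 22, Rsf1 in 10 and Cecr2 in 6.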

How the data were processed

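Each of 42 single cells was measured on 1 array. The deposited intensity values are linear MAS 5.0 signals, brought by the authors to a target of 500 on each array, with 1 cell per array and no pooling. The array measures the 3′ ends of transcripts amplified by 35 cycles of PCR. Gene symbols came from the platform annotation: of 45101 probe sets, 34958 with a single symbol were used, while 932 with several symbols and 9211 that were not listed were left out. The 36 member symbols matched RefSeq by gene identifier. The highest probe set of a gene gave its value, and 1000, the level the authors took as background, its presence. For shares, 95% intervals were exact (Clopper-Pearson), and for differences they followed Newcombe (Python 3.11.15, SciPy 1.17.1, statsmodels 0.14.6), without p-values, since cells are not replicates. The code was tested on simulated data. Every member is named, and of the partner lists all BAF genes and, of each other list, the 2 genes in the most and the 2 in the fewest cells. The members, lists and alternatives were chosen with earlier results of these data known. The alternatives were other presence limits, other values per gene, equal depth, and leaving out cells. Arrays with departing controls (SD over 18 control probe sets above 0.5 on the log2 scale) were kept.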

Additional observations from a re-analysis of the deposited data

Results flagged for a closer look

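In the 4 E13.5 cells, 1 of the genes Smarcad1 and Smarcal1 was present in cell B3 and none in the other 3, which gave a gap from the nearest cell above Dixon's critical value. The gene was Smarcad1. Smarcad1 had a signal of 6191 in B3. The test was made on 6 counts of genes per cell at E13.5, the one stage with between 4 and 10 cells, and 1 of them passed. With 3 cells tied at 0, any single cell above 0 gives the highest ratio possible, so the flag carries no weight, and the usual chance of about 1 in 20 does not hold for such counts.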

How the results depend on the processing

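The difference of 1.55 points in the share of member values between P0 and E12.5 ranged from -0.49 to 3.40 points with each cell left out. The cause of the following changes was not tested, beyond the limit or probe sets used. Over all genes, 23.1% of values were present at a limit of 500, 12.5% at 2000 and 7.19% at 5000. The all-gene share was 11.5% with the median of the probe sets and 14.4% with probe sets of plain _at names only. At a limit of 500, the share of member values present was 46.2% over all cells, 54.2% at E13.5 and 50.5% at E16.5, and by group 57.7% (BAF and PBAF), 60.7% (ISWI and BAZ), 41.2% (CHD) and 22.2% (other ARID), with 1 member higher at P0 than at E12.5 (Arid4b) and 1 lower (Chd8), against 5.29% and 1.69% of all genes. At 2000, it was 29.6% over all cells, 30.3% at E12.5, 32.6% at E13.5, 22.7% at E16.5 and 31.4% at P0, and 39.7%, 40.5%, 25.7% and 8.73% in the same groups, with 0 members higher and 0 lower, against 3.63% and 1.54%. At 5000, it was 15.9% over all cells, 19.2% at E12.5, 20.8% at E13.5, 6.94% at E14.5, 22.2% at E15.5, 11.6% at E16.5 and 16.2% at P0, and 22.4%, 20.6%, 14.0% and 3.97% in the groups and 8.33% for Smarcad1 and Smarcal1, with 1 higher (Smarca4) and 0 lower, against 1.43% and 1.21%. There, Arid1a was at -8.39 points and Smarcc1 at -19.6. With the median of the probe sets, it was 18.5% over all cells, 15.7% at E12.5, 24.3% at E13.5, 20.8% at E14.5, 27.8% at E15.5, 17.4% at E16.5 and 18.8% at P0, and 34.9%, 12.7%, 14.3%, 1.98% and 7.14% in the groups, with 0 higher and 0 lower, against 3.32% and 1.23%, and the first subunit in more cells in 7 of 11 pairs. Baz2b was then at 7.69 points and Smarcc1 at -1.40. With probe sets of plain _at names only, it was 32.4% over all cells, 31.9% at E12.5, 32.1% at P0, 41.7% (BAF and PBAF) and 26.7% (CHD). Chd4 was then in 1 cell and Chd3 in 8, because the probe set that detects Chd4 is of another name class. At equal depth, 0 members were higher, and 2, Arid1b and Baz2b, were lower, against 3.04% and 2.68%. Without the 5 E16.5 arrays, the E16.5 share was 26.9%. The added alternative without E13.5 cell A6 and E16.5 cell E5, chosen after seeing the data, moved none of these results past its interval.

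With each cell left out in turn, the share of member values present ranged from 37.8% to 38.8% over all cells, from 35.3% to 39.2% at E12.5, from 39.8% to 47.2% at E13.5, from 36.1% to 50.0% at E14.5, from 33.3% to 36.9% at E16.5 and from 37.5% to 40.3% at P0. The number of members higher at P0 ranged from 0 to 3 and the number lower from 1 to 2. The first subunit stayed in more cells in 11 pairs. E15.5 has 1 cell and could not be left out. No paired analysis was possible because the cell names do not tie a cell of one stage to a cell of another and stages were compared without a test.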
